A study of Mus musculus with 6 samples.

Results

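The mitosis and G2/M genes are a set of 45 genes whose RNA accumulates from late S phase to the end of cell division. They were chosen by symbol for their known role, with no measured value in the rule but with earlier results of these data known. All 45 were found among the 56748 genes listed for each uterus. Whole uterus samples, 3 from control and 3 from *Gp130* ecKO females, were collected at 1600 h on day 4 of pregnancy, shortly before embryos attach, and their poly(A) RNA was sequenced. *Gp130* ecKO females carried *Ltf*iCre/+ and *Gp130* flox/flox, and both groups had the C57BL/6 background by the labels (C57BL/6J in the study's methods). The labels call the control females WT, and the study's methods describe controls as floxed without iCre or as wildtype, so controls with and without the floxed allele cannot be told apart. The methods give the *Gp130* ecKO females as sexually mature, at over 8 weeks of age, and all females had mated with wildtype males. *Ltf*-iCre is active in cells that express lactoferrin, mainly the uterine epithelium and also some immune cells such as neutrophils and macrophages, so RNA of the whole uterus included cells that are not targets of the driver, such as stroma, muscle and vessels.

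Cells that are about to divide build up CDK1 with its A and B cyclins, and its activity starts mitosis. Kinetochores then attach chromosomes to the spindle, the spindle checkpoint delays anaphase until all are attached, and the anaphase-promoting complex (APC/C) ends mitosis by marking cyclins and securin for destruction. These genes share a late wave of transcription, are nearly silent in resting cells, and are widely read as a measure of how many cells in a tissue divide. In the mouse uterus before implantation, division ceases in the luminal epithelium and continues in the stroma, as textbooks describe it.

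Total expected counts ranged from 13960748 in control 3 to 25906443 in control 2. *Il6st*, the gene of Gp130, had 631, 678 and 452 CPM in control uteri 1, 2 and 3 and 388, 349.8 and 362 CPM in the *Gp130* ecKO uteri, with no overlap. CPM is the count of a gene relative to the TMM-scaled library size. Control 1 and *Gp130* ecKO 1 stood apart in the mitotic genes. *Gp130* ecKO 1 was the lowest of the 6 uteri in 40 of the 45 genes (88.9%), against 20.8% of the 16605 tested genes. Control 1 was the highest in 38 of the 45 (84.4%), against 18.2% of the tested genes. Log2 fold changes of the 45 genes are therefore given with all uteri and without these, and values without both had 2 uteri in each group. Both uteri were singled out by these same genes. Leaving them out was thus bound to raise most of the log2 fold changes, whatever the other uteri held. The labels number the uteri and do not say that each came from a separate female, so the p-values measure only the spread between these samples, which may be technical.

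Most of the mitosis and G2/M genes had a lower level in *Gp130* ecKO than in the control, but uteri of the same group differed widely from each other. The fitted log2 fold change was below 0 in 43 of the 45 genes (95.6%), with *Spc25* and *Pttg1* above 0, whereas 52.9% of all tested genes were below 0. Its median was −0.94 over the 45 genes and −0.047 over all tested genes. Control 1 was the highest and *Gp130* ecKO 1 the lowest uterus in 35 of the 45 (77.8%), against 6% of all tested genes. The 45 genes thus moved together across uteri, and their signs are not independent observations. The median of the 45 was −0.48 without control 1 and −0.59 without *Gp130* ecKO 1. Without both it was −0.13, and 26 of the 45 genes were below 0. With all uteri, the fitted level was more than 2-fold lower in 19 of the 45 genes, and in 1887 of the 16605 tested genes. Without control 1 and *Gp130* ecKO 1, only *Top2a*, *Mybl2* and *Mki67* of the 45 were. Their log2 fold changes were then −1.66, −1.63 and −1.11. In whole-tissue RNA, fewer dividing cells and less of each RNA per dividing cell cannot be told apart.

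None of the 45 genes passed the call of an FDR under 0.05 with more than a 2-fold change in edgeR's quasi-likelihood test, which called 0.157% of the tested genes in either direction. At an unadjusted p under 0.05, the same test gave 4 lower genes, *Top2a*, *Mybl2*, *Cenpe* and *Mki67*. These were 8.89% of the 45, while 12.9% of all tested genes were lower at that threshold, so in this test the share was not above the background. The exact test of edgeR gave 8 (17.8%) and DESeq2 9 (20%) at that threshold, against 12.9% and 13.7% of all tested genes. No mitotic gene was higher at that threshold in the quasi-likelihood test, against 12.1% of all tested genes. DESeq2 gave 3 lower genes at an FDR under 0.05, *Top2a*, *Mybl2* and *Cenpe*, where its share of all tested genes was 6.65%. The exact test of edgeR gave *Top2a* and *Mybl2*, where its share was 4.4%.

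No *Gp130* ecKO uterus reached the lowest control in 12 of the 45 genes (26.7%), namely *Top2a*, *Mybl2*, *Cenpe*, *Mki67*, *Cdca8*, *Cdk1*, *Birc5*, *Ccna2*, *Ube2c*, *Kif4*, *Cenpf* and *Cenpa*. Among all tested genes 15.6% were separated in this direction. In none of the 45 was every *Gp130* ecKO uterus above every control, against 15.7% of all tested genes. For each separated gene an exact two-sided permutation test gave p = 0.1, the smallest that 3 uteri against 3 allow. Without control 1 and *Gp130* ecKO 1 the number was 12 of the 45 (26.7%), and the share of all tested genes was 23.4%. Leaving uteri out cannot make separated groups overlap, so this number could not fall.

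**Figure D1:**
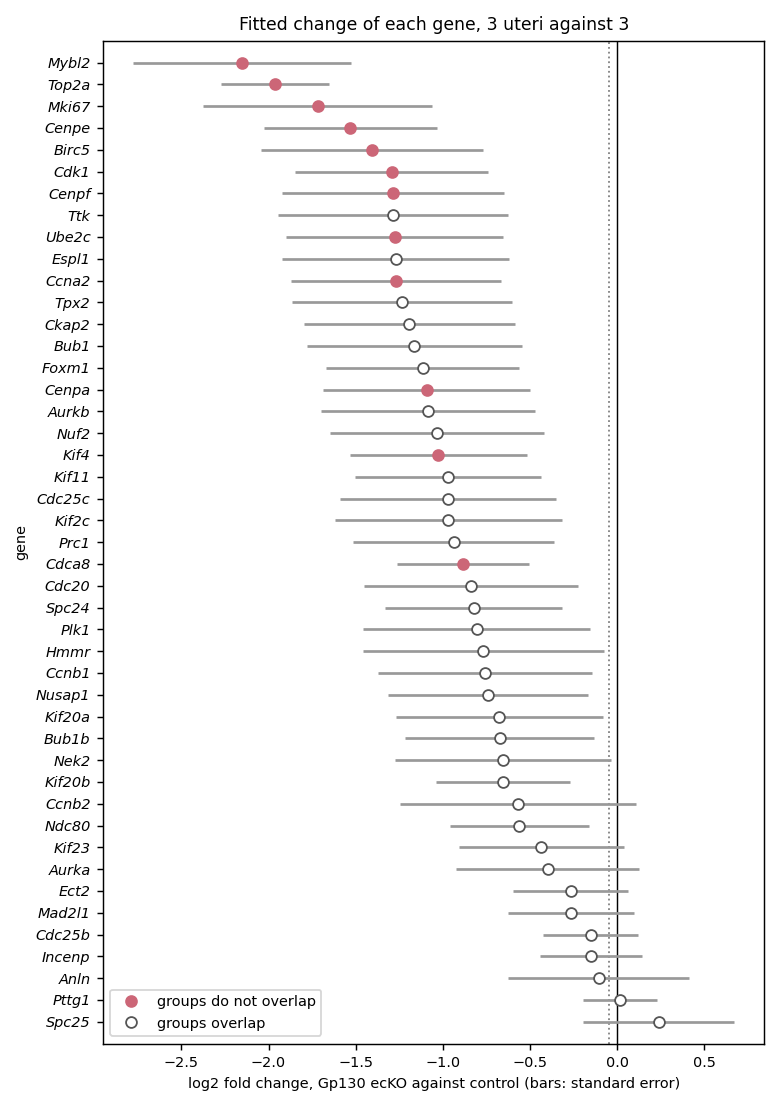
Fitted log2 fold change of each of the 45 genes in *Gp130* ecKO against the control (points) with its standard error (bars), from edgeR's quasi-likelihood fit of 3 uteri against 3. Filled points are the 12 genes whose groups did not overlap, and the dotted line is the median of all tested genes at −0.047. The points run from −2.15 for *Mybl2* to 0.24 for *Spc25*, with 43 of 45 below 0.

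Promoters of these genes are known for 2 short sequences, the cell cycle homology region (CHR) bound by the MuvB complex and the CCAAT box bound by NF-Y. The letters TTTGAA and TTCGAA for the CHR and CCAAT were searched on both strands, from 250 bases before to 50 bases after the start of the canonical transcript of GENCODE M39 on GRCm39. The CHR and CCAAT letters do not contain each other. Of the 45 promoters, 25 held a CHR sequence (55.6%), against 16% of the promoters of 14182 tested protein-coding genes. A CHR sequence that began within 50 bases of the start was in 20 of the 45 (44.4%) and in 3.55% of all. CCAAT was in 30 of the 45 (66.7%) and in 38.9% of all, and 21 of the 45 (46.7%) held both, against 6.74% of all. Neither was found in 11 of the 45, among them *Mybl2*, *Foxm1*, *Birc5*, *Ccna2*, *Aurka* and *Tpx2*. A match describes the letters only and is not evidence that a factor binds there.

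Stretches from 80 bases before to 20 bases after the start are shown 5′ to 3′ on the strand of the gene, with CHR and CCAAT letters on either strand in capitals (TTCAAA and ATTGG are the other strand of TTTGAA and CCAAT). The first 6 genes were chosen after the letters were found, to show how CCAAT and the CHR are spaced near the start in genes of different roles. *Mybl2* is shown as a gene with a large fitted difference and neither sequence in its window.
Top2a, chr11:98915022-98915121, minus strand: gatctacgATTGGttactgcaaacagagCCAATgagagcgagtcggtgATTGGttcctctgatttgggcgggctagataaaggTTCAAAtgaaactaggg
Cdk1, chr10:69188749-69188848, minus strand: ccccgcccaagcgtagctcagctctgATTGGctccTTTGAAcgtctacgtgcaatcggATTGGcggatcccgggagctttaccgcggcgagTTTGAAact
Ube2c, chr2:164611738-164611837, plus strand: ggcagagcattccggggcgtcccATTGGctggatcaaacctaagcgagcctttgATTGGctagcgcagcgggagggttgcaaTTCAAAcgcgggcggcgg
Aurkb, chr11:68936387-68936486, plus strand: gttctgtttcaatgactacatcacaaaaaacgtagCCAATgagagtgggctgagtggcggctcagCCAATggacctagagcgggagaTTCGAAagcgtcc
Prc1, chr7:79944107-79944206, plus strand: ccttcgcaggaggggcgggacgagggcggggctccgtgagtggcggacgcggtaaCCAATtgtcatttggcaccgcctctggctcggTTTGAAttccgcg
Kif23, chr9:61854054-61854153, minus strand: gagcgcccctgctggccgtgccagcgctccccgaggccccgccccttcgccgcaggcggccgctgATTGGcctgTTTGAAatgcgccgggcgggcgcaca
Mybl2, chr2:162896355-162896454, plus strand: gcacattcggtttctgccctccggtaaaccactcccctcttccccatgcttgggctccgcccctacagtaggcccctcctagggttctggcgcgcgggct

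In *Top2a*, *Cdk1*, *Ube2c* and *Aurkb* at least 2 CCAAT letters stood before a CHR near the start, while *Prc1* and *Kif23* had 1 of each in the stretch shown.

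The largest differences were those of *Top2a*, *Mki67* and *Mybl2*. *Top2a* encodes topoisomerase IIα, which untangles replicated chromosomes. It lies on chr11:98883769-98915062 and was the most abundant of the 45 genes, with a mean of 59.6 TPM (a level per transcript length, as the authors deposited it) over the 6 uteri. Its level was 169, 125 and 175 CPM in control uteri 1, 2 and 3, and 25.8, 57.5 and 36.9 CPM in the *Gp130* ecKO uteri. The lowest control was more than 2-fold above the highest *Gp130* ecKO uterus. The group means were 156 ± 27.5 CPM and 40.1 ± 16.1 CPM (SD, n = 3 each), and the fitted change was −1.96 on the log2 scale (standard error 0.31, adjusted p = 0.0548 with edgeR's quasi-likelihood test). It was −1.66 without control 1 and *Gp130* ecKO 1, and the adjusted p over all alternatives ran from 2.66e-06 with DESeq2 to 0.297 without those uteri.

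*Mki67*, on chr7:135291513-135318299, encodes the Ki-67 protein that coats mitotic chromosomes and marks cells in cycle. It had 56.1, 28.1 and 58.7 CPM in control uteri 1, 2 and 3, and 3.21, 25.6 and 14.5 CPM in the *Gp130* ecKO uteri. Control 2 and *Gp130* ecKO 2 lay next to each other, and *Gp130* ecKO 1 was far below all other uteri. The fitted change was −1.72 on the log2 scale (standard error 0.66, adjusted p = 0.167 with edgeR) and −1.11 without control 1 and *Gp130* ecKO 1.

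Among the transcription factors, *Mybl2* encodes B-Myb, which joins MuvB to switch on late cell cycle genes, and *Foxm1* encodes a factor that follows it on the same promoters. *Mybl2* (chr2:162896435-162926614) had 7.44, 2.51 and 8.67 CPM in control uteri 1, 2 and 3, and 0.588, 2.27 and 1.24 CPM in the *Gp130* ecKO uteri. The groups did not overlap, but control 2 exceeded *Gp130* ecKO 2 only narrowly. The fitted change was −2.15 on the log2 scale (standard error 0.62, adjusted p = 0.112 with edgeR), the furthest from 0 of the 45, and −1.63 without control 1 and *Gp130* ecKO 1. Its adjusted p ran from 0.0124 with DESeq2 to 0.456 without those uteri. *Foxm1* had 17.9, 9.52 and 12.6 CPM in control uteri 1, 2 and 3, and 1.90, 9.999 and 6.51 CPM in the *Gp130* ecKO uteri, where *Gp130* ecKO 2 lay above control 2, and its fitted change of −1.12 (standard error 0.55, adjusted p = 0.252 with edgeR) became −0.42 without control 1 and *Gp130* ecKO 1.

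**Figure D2:**
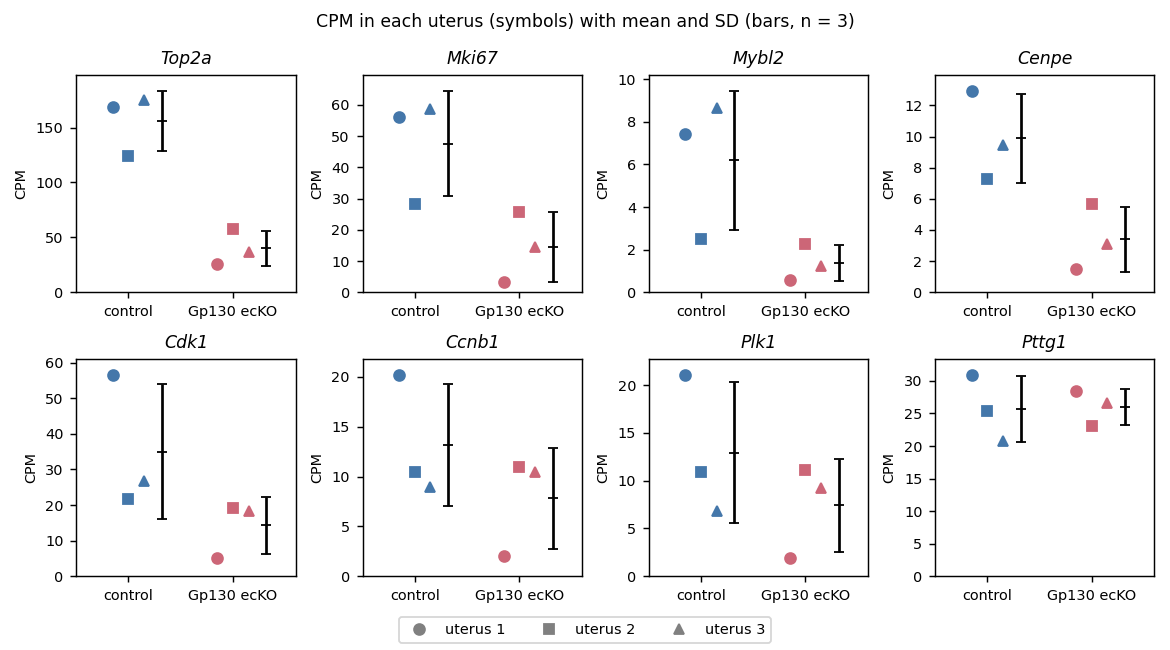
CPM of 8 genes in each uterus (symbols, numbered as in the labels), with the mean and SD of each group of 3 (bars), on linear axes from 0. *Top2a*, *Mki67*, *Mybl2*, *Cenpe* and *Cdk1* did not overlap between the groups, and *Mki67*, *Mybl2* and *Cdk1* were separated narrowly. *Ccnb1* and *Plk1* overlapped with 1 high control and 1 low *Gp130* ecKO uterus. *Pttg1* was at 23.0 to 28.4 CPM in *Gp130* ecKO and 20.8 to 31.0 CPM in the control.

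In the group of CDK1, cyclins and CDC25 phosphatases, all 6 genes were below 0 with a median log2 fold change of −0.87 that became −0.020 without control 1 and *Gp130* ecKO 1, and none reached an unadjusted p under 0.05. *Cdk1*, the kinase that drives entry into mitosis, had the highest level of the group at a mean of 33.1 TPM. It had 56.6, 21.6 and 26.9 CPM in control uteri 1, 2 and 3, and 5.06, 19.3 and 18.5 CPM in the *Gp130* ecKO uteri. Controls 2 and 3 were close to *Gp130* ecKO 2 and 3, while control 1 and *Gp130* ecKO 1 lay far out on either side. The fitted change was −1.29 on the log2 scale (standard error 0.55, adjusted p = 0.2 with edgeR) and was −0.36 without those uteri. *Ccna2*, the cyclin A2 partner of CDK2 and CDK1, had 71.9, 34.4 and 41.3 CPM in control uteri 1, 2 and 3, and 5.02, 29.5 and 26.7 CPM in the *Gp130* ecKO uteri. This is the same pattern, with a log2 fold change of −1.27 that became −0.43. The B cyclins *Ccnb1* and *Ccnb2*, which bind CDK1 at mitosis, overlapped between the groups at −0.76 and −0.57, and became 0.14 and 0.24 without those uteri. *Ccnb1* had 20.2, 10.5 and 8.93 CPM in control uteri 1, 2 and 3, and 1.99, 11.0 and 10.5 CPM in the *Gp130* ecKO uteri, so only control 1 and *Gp130* ecKO 1 were set apart. *Cdc25c* and *Cdc25b*, phosphatases that remove the inhibitory phosphates of CDK1, had −0.97 and −0.15, which became −0.18 and 0.21. *Cdc25c* was the least abundant of the 45 genes, with a mean of 1.15 TPM and 5 counts in *Gp130* ecKO 1.

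Of the mitotic kinases, *Plk1*, *Aurka* and *Nek2*, which act at centrosomes and spindle poles, none was separated, and the median log2 fold change of −0.66 became 0.21 without control 1 and *Gp130* ecKO 1. *Aurka* had the highest mean level of them at 7.72 TPM. It had 17.2, 7.67 and 4.47 CPM in control uteri 1, 2 and 3, and 4.34, 8.88 and 9.12 CPM in the *Gp130* ecKO uteri. The lowest *Gp130* ecKO uterus and the lowest control were nearly equal, and *Gp130* ecKO 2 and 3 lay above controls 2 and 3. Its fitted change of −0.40 (standard error 0.53, adjusted p = 0.658 with edgeR) became 0.56 without control 1 and *Gp130* ecKO 1. *Plk1* had 21.1, 10.9 and 6.87 CPM in control uteri 1, 2 and 3, and 1.90, 11.1 and 9.20 CPM in the *Gp130* ecKO uteri, again with 1 high control and 1 low *Gp130* ecKO uterus. The values of *Plk1* were −0.81 and 0.19, and those of *Nek2* were −0.66 and 0.21, with all uteri and without those uteri.

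The group of spindle checkpoint and anaphase control held 8 genes, of which 7 were below 0, and its median log2 fold change of −1.002 became −0.11 without control 1 and *Gp130* ecKO 1. *Ube2c*, the ubiquitin-conjugating enzyme of the APC/C, had 42.5, 17.6 and 20.5 CPM in control uteri 1, 2 and 3, and 2.85, 14.1 and 16.3 CPM in the *Gp130* ecKO uteri. It was the separated gene of this group, at −1.28 (standard error 0.62, adjusted p = 0.244 with edgeR), and was −0.32 without control 1 and *Gp130* ecKO 1. The checkpoint kinases *Bub1* and *Ttk* were at −1.16 and −1.29 and became −0.419 and −0.435. *Bub1b* and *Mad2l1*, whose proteins hold the APC/C inactive, were at −0.67 and −0.26 and became 0.155 and 0.102. *Cdc20*, the APC/C activator they bind, was at −0.84 and became 0.145. *Espl1*, the separase that cuts cohesin at anaphase, was at −1.27 and became −0.67, with 6.31, 3.55 and 6.40 CPM in control uteri 1, 2 and 3, and 0.497, 4.15 and 1.99 CPM in the *Gp130* ecKO uteri.

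*Pttg1*, which encodes securin, the inhibitor of separase, was in the same range in both groups. It was the second most abundant gene of the 45 at a mean of 53.9 TPM, with 31.0, 25.5 and 20.8 CPM in control uteri 1, 2 and 3, and 28.4, 23.0 and 26.7 CPM in the *Gp130* ecKO uteri. The groups overlapped throughout, and *Gp130* ecKO 1, the lowest uterus for most of the 45, was the highest of its group. The fitted change was 0.014 on the log2 scale (standard error 0.21, adjusted p = 0.970 with edgeR), and −0.031 and −0.052 under library size and upper quartile scaling, so its sign depends on the scaling. It was 0.10 without control 1 and *Gp130* ecKO 1.

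The chromosomal passenger complex corrects faulty attachments and sits at the midzone in anaphase. Its 4 genes were all below 0, with a median log2 fold change of −0.99 that became −0.17 without control 1 and *Gp130* ecKO 1. *Birc5* (survivin), the most abundant at a mean of 31.8 TPM, had 48.2, 20.4 and 25.4 CPM in control uteri 1, 2 and 3, and 2.71, 15.4 and 17.3 CPM in the *Gp130* ecKO uteri. *Cdca8* (borealin) had 21.7, 10.8 and 10.8 CPM in control uteri 1, 2 and 3, and 5.29, 9.31 and 8.83 CPM in the *Gp130* ecKO uteri. Both were separated, at −1.41 (standard error 0.64, adjusted p = 0.220 with edgeR) and −0.89 (standard error 0.38, adjusted p = 0.2), and became −0.48 and −0.25 without control 1 and *Gp130* ecKO 1. The kinase *Aurkb* overlapped at −1.09, and became −0.086. The scaffold *Incenp* was at −0.15 and became 0.12, and its lowest uterus was control 3.

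The centromere and kinetochore group had 7 genes, of which 6 were below 0, and its median log2 fold change of −1.03 became −0.20 without control 1 and *Gp130* ecKO 1. *Cenpe* (chr3:134918298-134979372), a motor that carries chromosomes to the spindle equator, had 12.9, 7.25 and 9.47 CPM in control uteri 1, 2 and 3, and 1.49, 5.65 and 3.07 CPM in the *Gp130* ecKO uteri. The groups were separated, with a fitted change of −1.53 (standard error 0.49, adjusted p = 0.127 with edgeR) and −0.93 without those uteri. Its adjusted p ran from 0.0319 with DESeq2 to 0.490 without them. *Cenpf*, an outer kinetochore protein, had 15.9, 8.52 and 11.9 CPM in control uteri 1, 2 and 3, and 0.995, 7.61 and 6.18 CPM in the *Gp130* ecKO uteri, at −1.29 that became −0.56. *Cenpa*, the histone H3 of centromeres, was separated as well, with 22.6, 13.2 and 13.7 CPM in control uteri 1, 2 and 3, and 1.85, 11.0 and 10.3 CPM in the *Gp130* ecKO uteri, at −1.09 that became −0.33.

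The 4 subunits of the NDC80 complex, which grips microtubules at the kinetochore, had unlike values. *Nuf2*, *Spc24* and *Ndc80* were at −1.03, −0.82 and −0.56, and *Spc25* was at 0.24. Without control 1 and *Gp130* ecKO 1 the first 3 were at −0.11, 0.044 and −0.20. *Spc25* was the most abundant of the 7 genes, at a mean of 24.0 TPM, and had 32.1, 10.3 and 14.9 CPM in control uteri 1, 2 and 3, and 20.9, 16.9 and 29.9 CPM in the *Gp130* ecKO uteri. Control 1 was the highest uterus here as well, but *Gp130* ecKO 1 lay above controls 2 and 3. Its fitted change of 0.24 (standard error 0.43, adjusted p = 0.751 with edgeR) became 0.88 without control 1, where it had an unadjusted p under 0.05, −0.034 without control 2, and 0.90 without control 1 and *Gp130* ecKO 1. The difference between *Spc25* and the other subunits was not tested.

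In the group of spindle motors and spindle assembly all 7 genes were below 0, with a median log2 fold change of −0.97 that became −0.14 without control 1 and *Gp130* ecKO 1. *Tpx2*, the activator of Aurora A on spindle microtubules, was the most abundant at a mean of 7.67 TPM. It had 53.7, 21.4 and 17.8 CPM in control uteri 1, 2 and 3, and 3.89, 19.7 and 15.9 CPM in the *Gp130* ecKO uteri. *Gp130* ecKO 2 lay above control 3, so the groups overlapped, and the fitted change of −1.24 (standard error 0.63, adjusted p = 0.263 with edgeR) became −0.14 without control 1 and *Gp130* ecKO 1. *Kif4*, a chromosome-bound motor, was separated with 9.63, 6.29 and 6.80 CPM in control uteri 1, 2 and 3, and 1.27, 5.11 and 4.73 CPM in the *Gp130* ecKO uteri, at −1.03 that became −0.41. *Kif11*, which pushes spindle poles apart, and *Kif2c*, which takes microtubules apart at centromeres, were both at −0.97 and became −0.16 and −0.13. The microtubule-binding proteins *Ckap2*, *Hmmr* and *Nusap1* were at −1.19, −0.77 and −0.74, and became −0.36, 0.039 and 0.099.

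The central spindle and cytokinesis genes had the median closest to 0 of the 9 role groups in the fit of all 6 uteri. All 6 were below 0 with a median of −0.55 that became 0.11 without control 1 and *Gp130* ecKO 1, none was more than 2-fold lower and none was separated. *Prc1*, which bundles the midzone microtubules, had 37.5, 18.6 and 17.7 CPM in control uteri 1, 2 and 3, and 3.80, 19.9 and 14.8 CPM in the *Gp130* ecKO uteri. *Gp130* ecKO 2 lay above controls 2 and 3, and the fitted change of −0.94 on the log2 scale (standard error 0.58, adjusted p = 0.341 with edgeR) became −0.063 without control 1 and *Gp130* ecKO 1. The midzone motors *Kif20a*, *Kif23* and *Kif20b* were at −0.68, −0.44 and −0.65, and *Kif20a* and *Kif23* became 0.12 and 0.11. *Ect2*, which activates RhoA for the contractile ring, was at −0.27 and became 0.19, and the ring scaffold *Anln* was at −0.11 and became 0.62. *Anln* had 20.8, 13.0 and 11.4 CPM in control uteri 1, 2 and 3, and 4.57, 20 and 17.5 CPM in the *Gp130* ecKO uteri, where *Gp130* ecKO 2 and 3 lay above controls 2 and 3. *Kif20b* was among the genes of the 45 with other extreme uteri, since its highest was control 3 and its lowest *Gp130* ecKO 3. It was −0.60 without control 1 and *Gp130* ecKO 1.

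**Figure D3:**
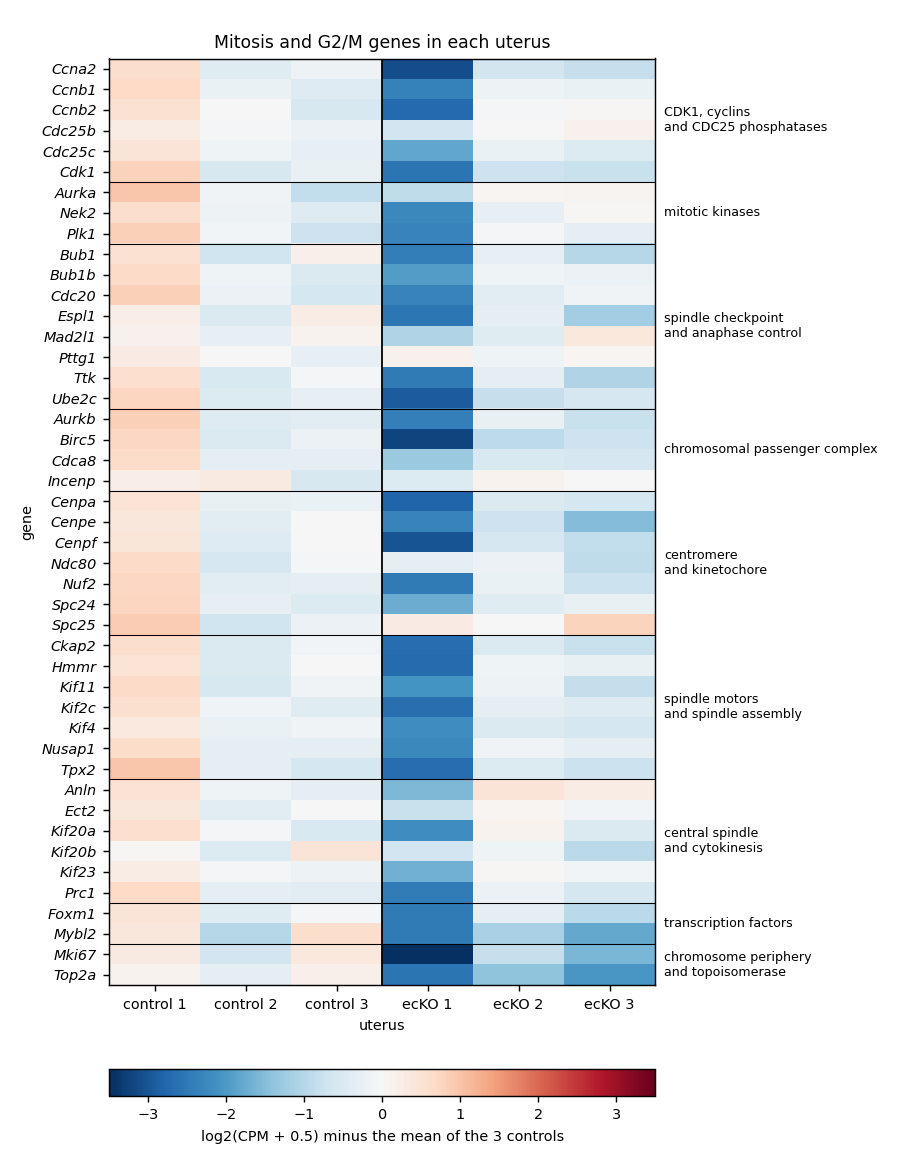
log2(CPM + 0.5) of the 45 genes in each uterus, minus the mean of the 3 controls for that gene (blue lower, red higher), with genes in rows by role and uteri in columns. The column of *Gp130* ecKO 1 is the darkest blue, with a median of −2.35 over the 45 genes, and control 1 is red in most rows, with a median of 0.58, while *Gp130* ecKO 2 and 3 have medians of −0.29 and −0.60 and controls 2 and 3 of −0.33 and −0.22.

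In most of the 45 genes 1 uterus of each group stood furthest out. The TPM of the 45 genes summed to 836, 487 and 549 in controls 1, 2 and 3 and to 207, 490.2 and 408 in *Gp130* ecKO 1, 2 and 3, so that *Gp130* ecKO 2 was close to control 2. *Gp130* ecKO 1 had a median of 0.219 times the mean of *Gp130* ecKO 2 and 3 over the 45 genes, and 0.994 times over all tested genes. It ran from 0.112 for *Hmmr* to 1.14 for *Ndc80* and *Pttg1*, and was under 0.5 in 36 of the 45. Control 1 had a median of 1.85 times the mean of controls 2 and 3, against 0.968 times over all tested genes. The depths of both uteri lay within the range of the others.

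The median log2 fold change of the 45 was −0.59 without *Gp130* ecKO 1, −0.48 without control 1 and −0.13 without both, a setting chosen after the data were seen. As the 2 uteri were chosen as the extremes of these genes, the direction of this move was fixed by the choice. Without both, 26 of the 45 genes were below 0 and 19 above, against a median of −0.033 over all tested genes. *Top2a* and *Mki67* were then the 2 genes with an unadjusted p under 0.05, where 5.85% of all tested genes were lower at that threshold. *Cdc25b*, *Aurka*, *Anln* and *Spc25* were higher in both *Gp130* ecKO uteri than in both controls, where 22% of all tested genes were. *Top2a*, *Mki67*, *Mybl2* and *Espl1* were the genes of the 45 whose highest uterus was control 3 and whose lowest was *Gp130* ecKO 1, and without both uteri they moved from −1.96, −1.72, −2.15 and −1.27 to −1.66, −1.11, −1.63 and −0.67. Leaving out control 1 does not remove the highest value of these genes, as it does for most of the 45.

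**Figure D4:**
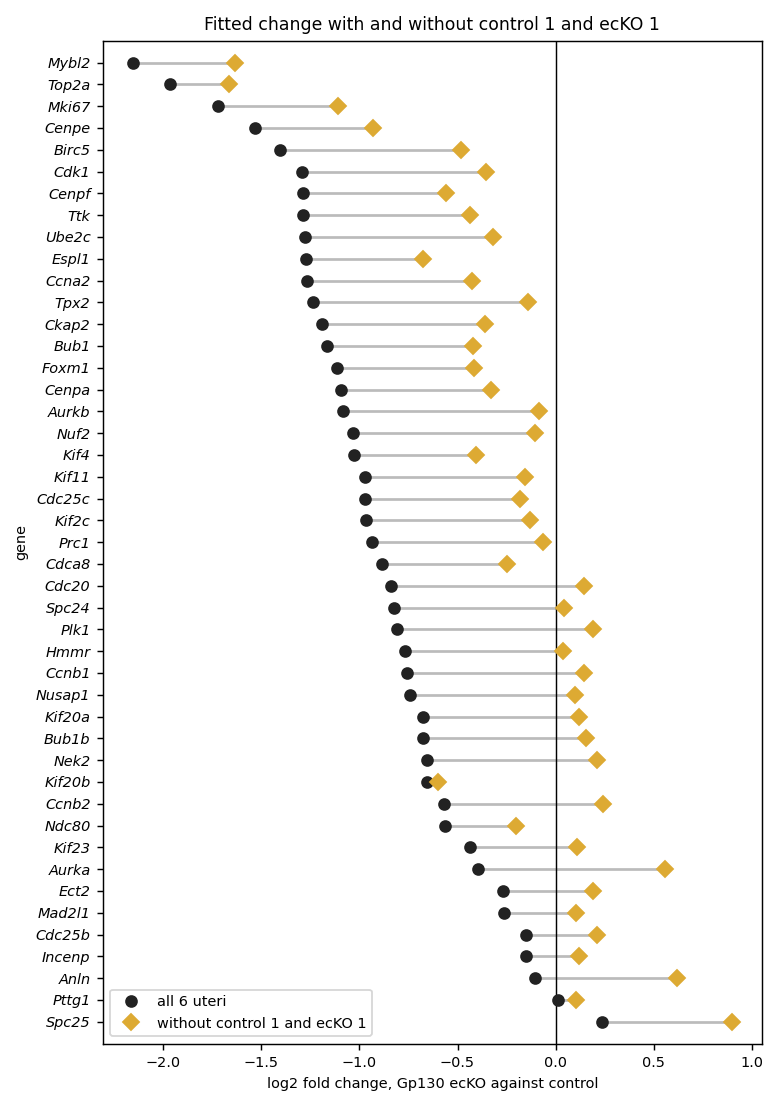
Fitted log2 fold change of each gene with all 6 uteri (circles) and without control 1 and *Gp130* ecKO 1 (diamonds), in the order of the former. *Mybl2*, *Top2a*, *Mki67* and *Cenpe* move from between −2.15 and −1.53 to between −1.66 and −0.93, and 17 genes that were below 0 move above it.

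Other genes of mitosis were counted in 7 lists. Condensins, further kinetochore and checkpoint genes, further kinesins and cytokinesis genes, and further CDK1 regulators made 82 genes with a median log2 fold change of −0.83, which became −0.21 without control 1 and *Gp130* ecKO 1. Of the 82, 72 were below 0 (87.8%, against 52.9% of all tested genes), and *Gp130* ecKO 1 was the lowest uterus in 68.3%, against 20.8%. At an unadjusted p under 0.05, 14 were lower (17.1%) and 1 was higher, against 12.9% and 12.1% of all tested genes. Of 8 condensin genes 1 was lower (12.5%, near the background), *Ncapg2* of condensin II at −1.67 (adjusted p = 0.0885 with edgeR, and from 0.0029 with DESeq2 to 0.400 over the alternatives). Of 34 kinetochore and checkpoint genes 8 were lower (23.5%), among them *Trip13*, which turns MAD2 off, at −1.15 and *Cenpm* at −1.34 (adjusted p = 0.129 and 0.136 with edgeR, from 0.0405 and 0.0480 with DESeq2 to 0.567 and 0.573 over the alternatives). Without control 1 and *Gp130* ecKO 1 they were at −0.70 and −0.71. Of 20 kinesins and cytokinesis genes *Kif15* and *Tacc3* were lower (10%, below the background), at −1.43 and −0.88, and became −0.82 and −0.29 without control 1 and *Gp130* ecKO 1. Of 20 CDK1 regulators *Cks1b*, *Pkmyt1* and *Haspin* were lower (15%, near the background) and *Mastl* was higher. The smallest p was that of *Cks1b*, a subunit of CDK complexes, at −1.01 (adjusted p = 0.0907 with edgeR, and from 0.0098 with DESeq2 to 0.439 over the alternatives).

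The lists of APC/C genes and of DREAM and MuvB subunits had medians close to 0. The 17 APC/C subunits and partners had a median of 0.047, with *Fbxo5* and *Ube2s* lower (11.8%) and *Anapc2* higher (5.88%) at an unadjusted p under 0.05, where 12.9% of all tested genes were lower and 12.1% higher. Neither share was above the background. The 12 DREAM and MuvB subunits, which hold these promoters silent in resting cells, had a median of 0.048, with 2 higher (16.7%) and 1 lower (8.33%), near the same background. *Rbl1* and *Rbl2*, the pocket proteins p107 and p130, were the higher genes, at 0.63 and 0.79 (adjusted p = 0.117 and 0.0877 with edgeR, from 0.0227 and 0.0078 with DESeq2 to 0.505 and 0.447 over the alternatives), and *Tfdp1* was the lower one. *Rbl2*, the pocket protein of resting cells, had 52.6, 64.8 and 55.1 CPM in control uteri 1, 2 and 3, and 119, 94.9 and 83.4 CPM in the *Gp130* ecKO uteri, and the groups did not overlap. Of the 12 genes 3 were separated higher and 2 lower, where 15.7% and 15.6% of all tested genes were. Of the 3 NF-Y subunits *Nfyb* was lower.

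The S phase genes, which precede the mitotic genes in the cycle, had another highest uterus. All 20 were below 0, against 52.9% of all tested genes, with a median of −1.04, and 14 were lower at an unadjusted p under 0.05 (70%, against 12.9%), with the smallest p for *Mcm3* at −0.98, *Mcm4* at −1.06 and *Uhrf1* at −1.74. Their summed TPM was 723, 464 and 955 in the controls and 433, 588 and 379 in *Gp130* ecKO, where the highest uterus was control 3. Control 1 was the highest in 2 of the 20, and *Gp130* ecKO 1 the lowest in 11 (55%, against 20.8% of all tested genes). Their median was −0.89 without control 1 and *Gp130* ecKO 1, and that of the 45 mitotic genes was −0.13. These 2 uteri were singled out as the extremes of the mitotic genes. They were the highest and the lowest uterus in 77.8% of the 45 and in 5% of the S phase genes. The 2 medians are therefore not a like comparison.

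Some cell type markers had the same extreme uteri. The summed TPM of 8 endothelial markers, such as *Pecam1* and *Kdr*, was 371 to 613 in the controls and 135 to 246 in *Gp130* ecKO. By CPM, control 1 was the highest and *Gp130* ecKO 1 the lowest of the 6 uteri in all 8, and 7 of the 8 were lower at an unadjusted p under 0.05 (87.5%, where 12.9% of all tested genes were lower and 12.1% higher). Their median log2 fold change was −1.27, and −0.72 without those uteri. The sum of 10 epithelial markers was 1810 to 3315 in the controls and 4619 to 6556 in *Gp130* ecKO, with 4 higher, and the highest was *Gp130* ecKO 1. The sum of 10 stromal markers was 2063 to 2365 in the controls and 1185 to 1677 in *Gp130* ecKO, with 6 lower and *Gp130* ecKO 1 the lowest. The sum of 8 smooth muscle markers was 440.1 to 2072 in the controls and 376 to 2358 in *Gp130* ecKO, lowest in *Gp130* ecKO 1 and highest in *Gp130* ecKO 3. The median log2 fold changes of the epithelial, stromal and smooth muscle markers were 0.70, −0.79 and −0.28, and became 0.75, −0.66 and 0.46 without control 1 and *Gp130* ecKO 1.

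Markers of immune cells and embryos were counted in the same way. The sum of 9 macrophage markers was 476 to 611 TPM in the controls and 395 to 721 TPM in *Gp130* ecKO, and *Lyz2*, at 142 to 522 TPM in *Gp130* ecKO, was a large part of it. By log2 fold change 6 of the 9 were below 0 with a median of −0.60 (−0.53 without control 1 and *Gp130* ecKO 1), 2 were separated in this direction, *Mrc1* and *Aif1*, and *Mrc1* was lower at an unadjusted p under 0.05 (11.1%, against 12.9% of all tested genes). *Gp130* ecKO 1 was the lowest uterus in the 6 that were below 0. The sum of 10 lymphocyte and NK cell markers was 23.7 to 46.9 and 11.7 to 45.4 TPM, and that of 6 neutrophil markers was 9.35 to 20.5 and 2.64 to 10.1 TPM. The 8 lymphocyte and NK cell markers tested had a median log2 fold change of −0.36, and −0.41 without those 2 uteri. Of the 5 neutrophil markers tested, 3 were lower at an unadjusted p under 0.05 (60%, against 12.9% of all tested genes). In the same direction 3 were separated (60%, against 15.6%). By log2 fold change 4 of the 5 were below 0, and the other 1 was more than 2-fold higher in the fit. Their median log2 fold change was −3.06, and −2.55 without control 1 and *Gp130* ecKO 1. Of the 8 blastocyst markers listed, 7 were matched by symbol. *Fgf4* was listed at 0 in all 6 uteri and *Cdx2* in 5, and the 7 summed to 1.29 to 3.28 TPM in the controls and 0.44 to 2.30 TPM in *Gp130* ecKO. Epithelial, stromal, muscle and endothelial markers were present in every uterus, as the label of whole uterus requires. The part of these cell types in the differences of the mitotic genes was not tested.

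**Figure D5:**
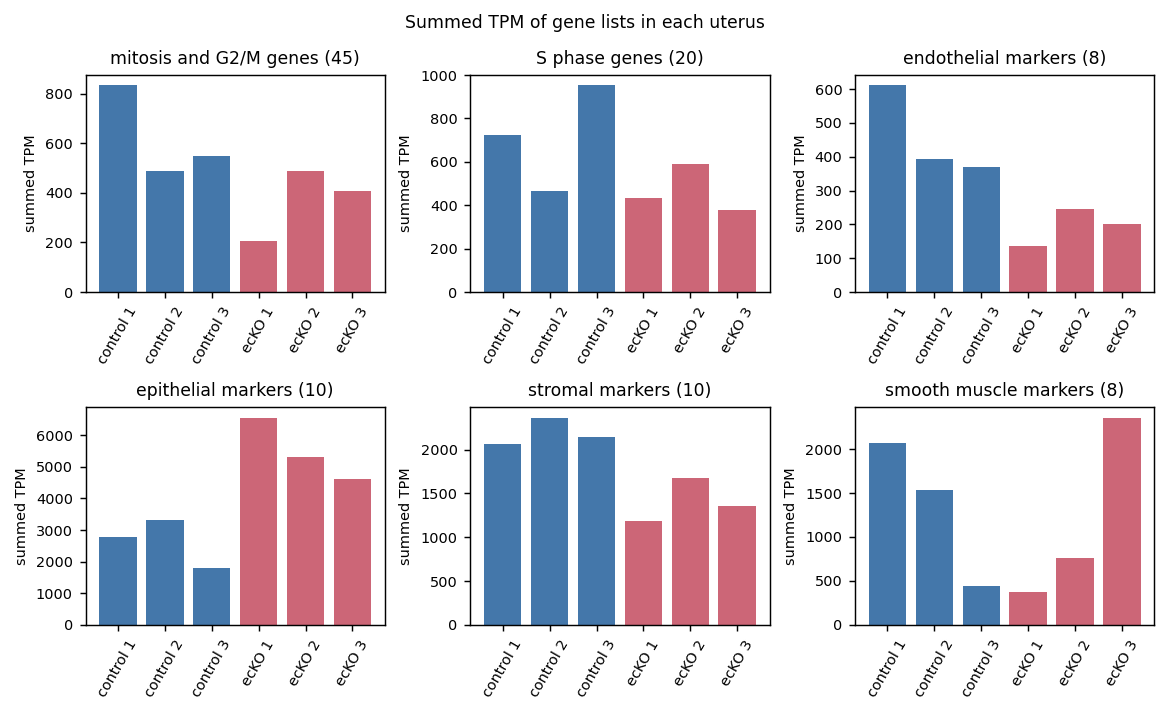
Summed TPM (as deposited, linear axes from 0) of the 45 mitosis and G2/M genes, 20 S phase genes and markers of 4 cell types in each uterus, with controls in blue and *Gp130* ecKO in red. The mitotic sum is highest in control 1 at 836 and lowest in *Gp130* ecKO 1 at 207, as is the endothelial sum at 613 and 135, while the S phase sum is highest in control 3 at 955 and the epithelial sum is highest in *Gp130* ecKO 1 at 6556.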

How the data were processed

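RNA of 6 whole uteri was measured, 3 per group by the labels. Per the submitters' processing notes, reads were handled with fastp 0.23.2, STAR 2.7.10a and RSEM 1.3.3 on GRCm39. The authors deposited the expected count of each gene, which RSEM estimates by dividing reads that match several genes and which is not normalized. They also deposited TPM, scaled by them for length and depth and used here only for levels, and FPKM, not used here. The annotation version and the use of strand in counting were not given in the sources used here, so reads of overlapping antisense genes may not be separated.

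Expected counts were rounded, filtered with filterByExpr (16605 genes kept, all 45 mitotic genes among them), scaled by TMM and tested with edgeR 4.0.16 in R 4.3.3 (glmQLFit without the legacy setting, glmQLFTest, Benjamini-Hochberg over all tested genes). The standard error of a log2 change was obtained from its F statistic, and an exact permutation test was run on log2(CPM + 0.5) of single genes. DESeq2 1.42.0, edgeR's exact test, other scalings and filters, a replicate block and fits without each uterus were alternatives. Symbols, coordinates and promoters came from GENCODE M39, which holds 56017 of the 56748 gene IDs. On simulated data of this design, the quasi-likelihood test missed every change of the smaller size that was put in and many of the larger size. Per-uterus values are given for genes that passed in any tool, for the 12 smallest p and for the most abundant gene of each role. Other genes of the 45 are given by their log2 fold change, with per-uterus values of *Espl1*, *Ccnb1*, *Plk1*, *Cenpa*, *Anln* and *Rbl2* added after they were seen. The members and lists were chosen with earlier results of these data known. No libraries of a group had nearly identical counts.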

Additional observations from a re-analysis of the deposited data

How the results depend on the processing

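The median log2 fold change of the 45 genes stayed below 0 in every setting run, from −1.33 without *Gp130* ecKO 2 to −0.13 without control 1 and *Gp130* ecKO 1. The number called of the 45 was 0 as reported, where 0.157% of all tested genes were called in either direction. It was 3 by DESeq2 (9.31% of all tested genes) and 2 by the exact test of edgeR (7.54%). It was 1 when low counts were not filtered (0.351%). At an FDR under 0.1 with no fold threshold it was 1 (2.22%, against 6.47% of all tested genes). With 1 uterus left out it was 2 without control 2 (5.2% of all tested genes) and 0 otherwise. Lower genes at an unadjusted p under 0.05 numbered 8 with the exact test (17.8% of the 45, against 12.9% of all tested genes), 9 with DESeq2 (20% against 13.7%), 7 without a filter (15.6% against 8.65%), 2 without control 1 and *Gp130* ecKO 1 (4.44% against 5.85%), and 2 (without control 1, 4.44% against 9.66%) to 10 (without *Gp130* ecKO 2, 22.2% against 11.4%) with 1 uterus left out. Higher genes numbered 0 to 1 with 1 uterus left out (1 without control 1, 9.56% of all tested genes). Separated genes numbered 12 to 26 lower (26.7% to 57.8%, against 18.5% to 23.1% of all tested genes) and 0 to 1 higher (against 18% to 22.8%) with 1 uterus left out, and 4 higher without control 1 and *Gp130* ecKO 1 (8.89% against 22%).

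All genes called numbered 26 of 16605, and 7 with the legacy form, 1252 with the exact test and 1546 with DESeq2. They numbered 105 of 29916 without a filter and 892 of 17142 without control 2. With any other single uterus left out they numbered 1 to 6, and 0 without control 1 and *Gp130* ecKO 1. The causes were not tested. Library size and upper quartile scaling moved the median of all genes to −0.097 and −0.114.

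Of 765 values of single genes, 727 kept their sign and side of the threshold, 8 of 3 genes passed it and 30 of 19 genes changed sign. Without control 1 and *Gp130* ecKO 1 these were *Ccnb1* 0.142, *Ccnb2* 0.242, *Cdc25b* 0.209, *Plk1* 0.189, *Aurka* 0.557, *Nek2* 0.208, *Bub1b* 0.155, *Mad2l1* 0.102, *Cdc20* 0.145, *Incenp* 0.12, *Spc24* 0.044, *Hmmr* 0.039, *Nusap1* 0.099, *Kif20a* 0.121, *Kif23* 0.107, *Anln* 0.618 and *Ect2* 0.190. *Pttg1* was −0.031 with library size only and −0.052 with upper quartile scaling. With 1 uterus left out the log2 fold change ranged from −0.302 to 0.066 for *Cdc25b*, −0.736 to 0.309 for *Aurka*, −0.703 to 0.024 for *Mad2l1*, −0.118 to 0.194 for *Pttg1*, −0.383 to 0.037 for *Incenp*, −0.034 to 0.876 for *Spc25* and −0.450 to 0.314 for *Anln*.

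By the labels, samples with the same replicate number share only a number. Correlations of their deviations from the group means were 0.10, 0.069 and −0.20, and those of the other pairs ran from −0.31 to 0.22. With 3 uteri per group these cannot show whether same-numbered samples were handled together. With the replicate block 0 of the 45 were called, 4 were lower at an unadjusted p under 0.05 (8.89%, against 10.7% of all tested genes), the median was −1.04, and 6 genes were called in all. The depth of 13960748 counts in control 3 and the 5 counts of *Cdc25c* in *Gp130* ecKO 1 limit the weakest genes.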
